A study of Mus musculus with 4 samples.

Results

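Skeletal muscle fast and slow fibre genes were followed across 4 samples labelled thyroid from Balb/c mice, on an Illumina BeadChip array each. The samples come from a radioiodine (131I) series and are labelled with absorbed doses of 0, 0.85, 8.5 and 17 Gy, all at 24 h, of which 0 Gy serves as the control. There was 1 array at each dose. The labels used here do not give the number of mice behind a sample, nor their sex or age, so that dose, animal, dissection and array cannot be told apart, and the differences are given as descriptions of single arrays, without tests. The members were 40 genes listed by name and found by gene symbol in the platform annotation: 14 fast fibre genes, 9 slow fibre and cardiac isoforms, 10 structural and calcium release genes shared by fibre types, and 7 genes of muscle energy metabolism. Of these, 37 had a probe and Myh2, Neb and Smpx had none. They made up 37 of 16593 named genes and 53 of 26512 probes, with 28 genes read by 1 probe and 9 by several.

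Skeletal muscle contracts when calcium released from the sarcoplasmic reticulum binds troponin on the actin filament and frees the sites at which myosin pulls. Most of these proteins come from small gene families whose members are used in different fibres, so that fast glycolytic fibres, slow oxidative fibres and heart muscle carry different myosins, troponins and calcium pumps. Follicular cells of the thyroid do not build sarcomeres, whereas striated muscle lies against the gland in the neck.

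Promoter windows of 4 members are shown so that fast and slow isoforms can be read side by side: Tnnc2 and Tnnc1 encode fast and slow troponin C, Acta1 the actin of skeletal muscle and Myl3 the essential light chain of slow fibres and heart ventricle. Each window runs from 250 bases before to 50 bases after the RefSeq start of the gene in GRCm38.p6, and is written 5′ to 3′ on the strand of the gene, with capitals marking every match to a searched motif.
Acta1: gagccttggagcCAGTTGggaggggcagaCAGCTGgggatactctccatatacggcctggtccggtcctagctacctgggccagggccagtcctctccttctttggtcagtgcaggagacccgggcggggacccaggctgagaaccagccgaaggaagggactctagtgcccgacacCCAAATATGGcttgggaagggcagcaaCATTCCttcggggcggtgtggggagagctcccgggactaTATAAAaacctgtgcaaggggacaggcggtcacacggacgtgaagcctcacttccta
Tnnc2: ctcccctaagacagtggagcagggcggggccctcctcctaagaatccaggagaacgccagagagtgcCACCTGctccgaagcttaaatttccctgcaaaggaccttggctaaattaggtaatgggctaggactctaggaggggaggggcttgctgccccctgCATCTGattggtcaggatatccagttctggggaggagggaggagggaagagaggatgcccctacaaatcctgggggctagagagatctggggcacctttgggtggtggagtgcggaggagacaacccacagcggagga
Tnnc1: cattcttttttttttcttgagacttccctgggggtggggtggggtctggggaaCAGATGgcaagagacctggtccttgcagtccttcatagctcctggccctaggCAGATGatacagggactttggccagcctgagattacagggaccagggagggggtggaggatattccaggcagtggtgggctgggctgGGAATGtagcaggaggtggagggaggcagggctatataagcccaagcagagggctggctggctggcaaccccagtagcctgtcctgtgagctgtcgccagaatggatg
Myl3: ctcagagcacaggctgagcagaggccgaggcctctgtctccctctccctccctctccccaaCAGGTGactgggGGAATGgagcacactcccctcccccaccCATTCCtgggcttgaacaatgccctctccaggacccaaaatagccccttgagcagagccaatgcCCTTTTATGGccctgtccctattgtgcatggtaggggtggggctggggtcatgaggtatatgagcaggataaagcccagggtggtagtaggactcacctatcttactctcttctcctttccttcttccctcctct
The Acta1 window lies at chr8:123894726-123895025 on the minus strand, Tnnc2 at chr2:164779685-164779984 on the minus strand, Tnnc1 at chr14:31208062-31208361 on the plus strand and Myl3 at chr9:110763428-110763727 on the plus strand. The motifs searched were the E-box CANNTG, bound by myogenic regulators such as MyoD, the MCAT box CATTCC, bound by TEAD factors, the MEF2 box and the CArG box, bound by MEF2 and by serum response factor, each on both strands, and TATAAA on the strand of the gene. Windows were available for 32 of the 40 members, and in 0 of their 39 windows did different motifs overlap. The E-box was found in 28 of the 32 genes (87.5%), against 75% of all 27025 genes with a window. MCAT was found in 12 members (37.5%), against 16.6% of all genes, and the MEF2 box in 6 (18.8%), against 3.7%. The CArG box was found in 3 members (9.38%), against 1.81% of all genes, and TATAAA in 5 (15.6%), against 9.77%. Matches stood in windows of both fast and slow genes: fast Tnnc2 and slow Tnnc1 each held 2 E-boxes. A CArG box stood in the windows of the fast gene Myh4, the slow and cardiac gene Myl3 and the shared gene Acta1. These matches describe the sequence and are not evidence of binding.

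Background, as estimated from the detection p-values, averaged 86.0, 101, 97.2 and 88.5 intensity units at 0, 0.85, 8.5 and 17 Gy, and the lowest intensity with a detection p under 0.01, the threshold for a detected probe, was 103, 122, 115 and 104. The defining genes of the labelled tissue were at background: of 8 thyrocyte genes with a probe, only the thyrotropin receptor gene Tshr was detected, and Tg, Slc5a5, Pax8, Nkx2-1 and Foxe1 were not detected on any array. Summed over that list, intensity was 722, 780, 802 and 743. Of 7 brown fat genes with a probe, 5 were detected on every array and Dio2 and Prdm16 on none, and the list had sums of 35776, 49522, 52959 and 33906, most of it from Ucp1, Cidea and Cox7a1. The salivary gland list of 8 genes had sums of 722, 819, 821 and 13675. The smooth muscle list of 9 genes, Des among them, had sums of 5843, 7446, 4808 and 5248. All these sums are of non-normalized intensity and include background. Over all named genes the sums were 6607449, 8679713, 8026005 and 6805583. In normalized values, the median log2 difference of the 5 detected brown fat genes from 0 Gy was -0.12, -0.15 and -0.22 at 0.85, 8.5 and 17 Gy. The part of these other tissues in the muscle values was not tested.

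Of the 37 muscle genes with a probe, 9 were detected at 0 Gy, 12 at 0.85 Gy, 33 at 8.5 Gy and 15 at 17 Gy. Over all named genes, the detected share was 43.6%, 43.1%, 44.7% and 45.4% in the same order. Of the 37, 17 were detected at 8.5 Gy and on no other array, which held for 1.89% of all named genes. Of the same 37, 8 were detected on every array, and Myh7, Myl2 and Tnni1 on none. Among the 16593 named genes, 6477 were detected on every array and 8210 on none. In 28 of the 34 members detected on any array, the 8.5 Gy value stood at least 2-fold above each of the other arrays, against 1.41% of the 8383 named genes detected on any array. These were 13 of 13 fast genes with a probe, 1 of 9 slow or cardiac isoforms, 7 of 8 shared structural genes and 7 of 7 energy genes. In RNA from whole tissue, more muscle cells and more muscle RNA per cell cannot be told apart. Summed over the 37 genes, intensity was 8154, 10446, 186156 and 9064 in order of dose, so that the 8.5 Gy array stood alone. Split by group, the fast genes summed to 4593, 6243, 130238 and 5322, and the slow and cardiac isoforms to 1166, 1474, 1499 and 1261. The sums include background, which averaged 97.2 units a probe at 8.5 Gy and makes up much of the slow and cardiac sums. Within those, Mybpc1 had 93, 107, 310 and 85.

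**Figure D1:**
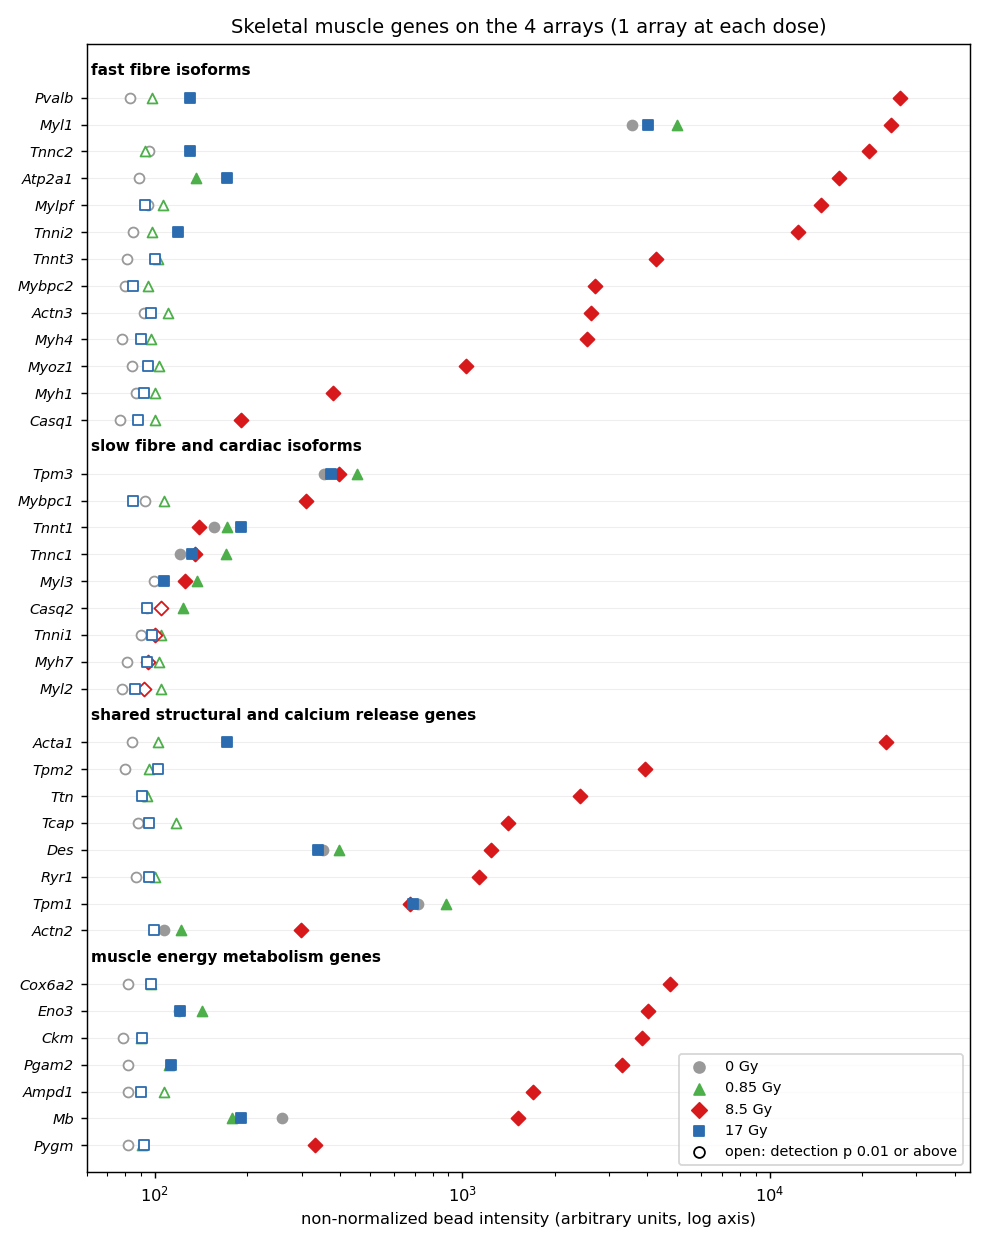
Non-normalized intensity (log axis, arbitrary units) of the 37 muscle genes with a probe on the arrays at 0, 0.85, 8.5 and 17 Gy, each gene by its brightest probe; open symbols have a detection p of 0.01 or above. The 8.5 Gy symbols of all 13 fast genes lie right of the other arrays, while among 9 slow and cardiac isoforms only Mybpc1 does so.

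Between 8.5 Gy and 0 Gy, 33 members were detected on at least 1 of both arrays, and 28 of them were at least 2-fold higher at 8.5 Gy and 0 at least 2-fold lower, against 2.63% higher and 3.63% lower among 7862 genes measured. Of the 33, 24 entered only through their 8.5 Gy value. The median log2 difference, 8.5 Gy minus 0 Gy, was 6.998 over the 13 fast genes, 0.0011 over 5 slow or cardiac isoforms, 5.70 over 8 shared genes and 6.30 over 7 energy genes, beside -0.045 over all genes. With genes not detected at 0 Gy set at their bound, these medians were 6.11, 0.0011, 4.99 and 6.05. The slow median is the value of Tpm3, which is also made outside muscle. The other measured slow or cardiac isoforms had 3.17 (Mybpc1), 0.45 (Myl3), -0.10 (Tnnc1) and -0.77 (Tnnt1). Myl3, Tnnc1 and Tnnt1 had 125, 135 and 139 units at 8.5 Gy, where the lowest detected intensity was 115. Where a gene was not well above background at 0 Gy, its fold is written as a bound against the lowest value of a detected probe there. Folds and log2 differences are of normalized, background-corrected values. Near background they can therefore lie above the ratio of the intensities printed beside them or, for some bounds, below it.

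Among the troponins, each fast member stood far above the other arrays at 8.5 Gy and no slow member did. Tnnc2, the calcium sensor of fast fibres, had intensities of 96, 93, 21104 and 130 at 0, 0.85, 8.5 and 17 Gy. It was at least 536-fold higher at 8.5 Gy than at 0 Gy. Its slow and cardiac counterpart Tnnc1 had 121, 170, 135 and 132. Tnnc1 was detected on all 4 arrays, and its log2 difference, 8.5 Gy minus 0 Gy, was -0.10, with the 0.85 Gy array the highest. Tnni2, the inhibitory subunit of fast fibres, had 85, 98, 12323 and 119 and was at least 312-fold higher at 8.5 Gy than at 0 Gy. The slow inhibitory subunit gene Tnni1 had 90, 105, 100 and 98 and was not detected on any array. For the tropomyosin-binding subunit, fast Tnnt3 had 81, 102, 4281 and 100, at least 110-fold higher at 8.5 Gy. Slow Tnnt1 had 156, 171, 139 and 190 and was detected on all arrays with its lowest value at 8.5 Gy, a log2 difference from 0 Gy of -0.77. In GRCm38.p6, Tnni2 and Tnnt3 lie on the same chromosome with 1 protein-coding gene between them, Tnni1 likewise beside the cardiac Tnnt2, and Tnnt1 directly beside the cardiac Tnni3. Both genes of the fast pair were thus higher at 8.5 Gy, and of the slow members in the other clusters Tnnt1 was detected and Tnni1 was not.

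The myosins divided in the same way. Myh4, the heavy chain of the fastest fibres (type IIb), had intensities of 78, 97, 2536 and 90 and was at least 65.7-fold higher at 8.5 Gy than at 0 Gy. Myh1, the heavy chain of type IIx fibres, had 87, 100, 379 and 92 at its brighter probe, at least 8.35-fold higher at 8.5 Gy, while its other probe had 89, 93, 105 and 80 and was not detected on any array. Myh7, the heavy chain of slow fibres and heart ventricle, had 81, 103, 95 and 94 and was not detected. Myh2, Myh1 and Myh4 are adjacent in GRCm38.p6 with 0 protein-coding genes between neighbours, and they are close in sequence. Which of these heavy chains gave the signal of a probe is therefore uncertain, and the probe sequences were not used here. Mylpf, the regulatory light chain of fast fibres, had 95, 106, 14703 and 93, at least 371-fold higher at 8.5 Gy than at 0 Gy. Its slow counterpart Myl2 had 78, 105, 92 and 86 and was not detected on any array.

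The essential light chain gene Myl1 was the only one of the 13 fast genes detected on every array, with 3566, 5005, 24875 and 4032 at its brighter probe. Its 8.5 Gy value was 5.59-fold that at 0 Gy, and above the background mean the 0, 0.85 and 17 Gy arrays reached 14.0%, 19.8% and 15.9% of the 8.5 Gy value. A second Myl1 probe had 155, 172, 854 and 142, with a log2 difference of 3.002, 8.5 Gy minus 0 Gy. Both probes were detected on all arrays, whereas 12 of the 13 fast genes were not detected at 0 Gy. Whether other transcripts add to the signal of the Myl1 probes was not tested. The slow and ventricular Myl3 had 99, 137, 125 and 107, with detection at 0.85, 8.5 and 17 Gy and not at 0 Gy, and was at least 1.20-fold higher at 8.5 Gy than at 0 Gy. Its highest value stood at 0.85 Gy.

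Calcium handling genes of fast fibres included the member with the highest bound on its fold, Pvalb. It encodes a soluble calcium buffer that speeds relaxation, and had 83, 98, 26621 and 130, at least 699-fold higher at 8.5 Gy than at 0 Gy. Atp2a1, the calcium pump of the fast sarcoplasmic reticulum, had 89, 136, 16859 and 171, at least 423-fold higher at 8.5 Gy. Atp2a2, the pump of slow and cardiac muscle that many other cells also express, had 1274, 1098, 986 and 1403, a log2 difference of -0.68, 8.5 Gy minus 0 Gy. It is no member and is given as the partner of Atp2a1. Casq1, the calcium store protein of fast fibres, had 77, 100, 191 and 88, at least 3.04-fold higher at 8.5 Gy than at 0 Gy. Cardiac Casq2 had 94, 123, 105 and 94 and was detected at 0.85 Gy only. Ryr1, the channel that releases calcium from the store, had 87, 100, 1131 and 96 at its brightest probe, at least 28.4-fold higher at 8.5 Gy.

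**Figure D2:**
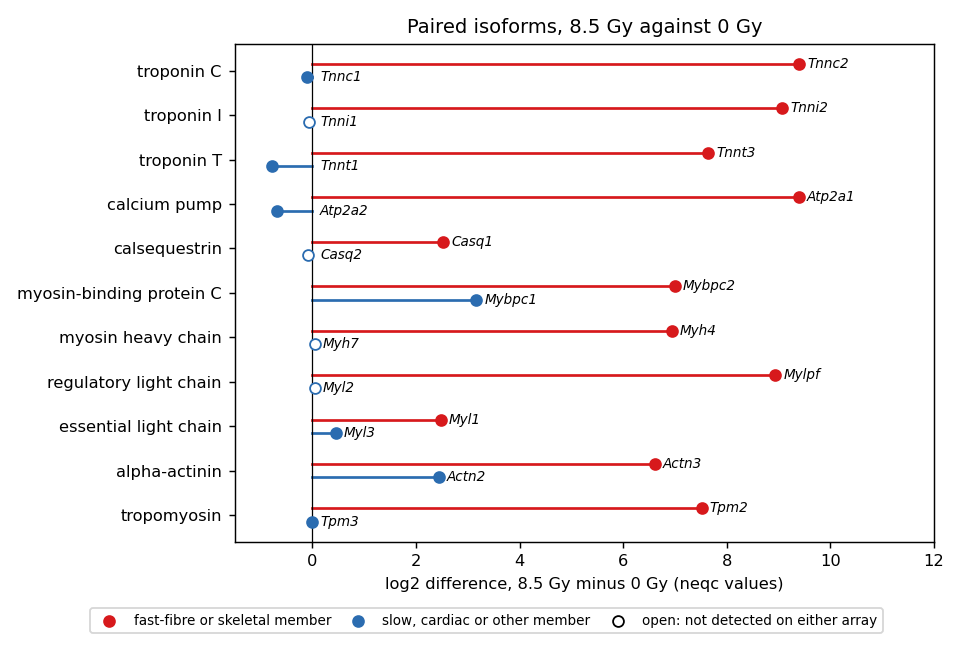
Log2 difference (8.5 Gy minus 0 Gy, normalized values) of 11 pairs of isoforms, with the fast-fibre or skeletal gene above its slow, cardiac or other partner; open symbols were detected on neither array, and differences of genes not detected at 0 Gy depend on the background there. The upper gene lies farther right in every plotted pair, from 2.48 for Myl1 to 9.40 for Tnnc2. Among the partners only Mybpc1 and Actn2 lie beyond 1. The tropomyosin pair sets Tpm2, a shared structural gene, above Tpm3. Tpm1, which is not plotted, had a difference of -0.34, lower than that of Tpm3.

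The plot of 11 isoform pairs also shows 2 in which the partner gene was itself at least 2-fold higher at 8.5 Gy. In myosin-binding protein C, which links the thick filament to its neighbours, fast Mybpc2 had 80, 95, 2706 and 85 and was at least 69.3-fold higher at 8.5 Gy than at 0 Gy. Mybpc1, the form named for slow fibres, had 93, 107, 310 and 85 and was at least 6.41-fold higher, the only slow or cardiac isoform at least 2-fold apart. Mybpc1 is known to be made in fast fibres as well. Of the alpha-actinins, which anchor actin at the Z-disc, fast Actn3 had 92, 110, 2630 and 97, at least 67.8-fold higher at 8.5 Gy, and Actn2, made in all fibres and in heart, had 107, 122, 299 and 99, 5.41-fold higher. Actn2 was detected at 0, 0.85 and 8.5 Gy and not at 17 Gy. Myoz1, a Z-disc protein of fast fibres that binds calcineurin, had 84, 103, 1030 and 95 and was at least 25.9-fold higher at 8.5 Gy than at 0 Gy.

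Of the structural genes that fibre types share, skeletal actin Acta1 had 84, 102, 23880 and 172 and was at least 598.5-fold higher at 8.5 Gy than at 0 Gy. Actins are close in sequence: the cardiac form Actc1 had 91, 123, 145 and 106 and the smooth muscle form Acta2 4383, 5759, 2486 and 3794. The 8.5 Gy array was thus the highest for Acta1 and for Actc1, and the lowest for Acta2. Ttn, the giant spring protein of the sarcomere, had 92, 94, 2421 and 91, at least 62.1-fold higher at 8.5 Gy, and its cap protein Tcap had 88, 117, 1406 and 96, at least 35.7-fold higher. Des, the intermediate filament of all muscle types, had 351, 396, 1242 and 339 and was 3.58-fold higher at 8.5 Gy than at 0 Gy. Its other arrays reached 23.1%, 25.8% and 21.9% of the 8.5 Gy value above background at 0, 0.85 and 17 Gy. The tropomyosins, which cover the myosin sites on actin, were split. Tpm2 had 80, 96, 3925 and 102, at least 99.8-fold higher at 8.5 Gy. Tpm1, also made in smooth muscle and many other cells, had 720, 886, 674 and 691, a log2 difference of -0.34, and Tpm3, the slow form that is likewise made outside muscle, had 354, 453, 398 and 375, a difference of 0.00.

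All 7 energy genes were at least 2-fold higher at 8.5 Gy than at 0 Gy. Ckm, the muscle creatine kinase, had 79, 90, 3832 and 91, at least 97.5-fold higher, and Cox6a2, the muscle and heart subunit of cytochrome oxidase, had 82, 97, 4745 and 97, at least 121-fold higher. The glycolytic enzyme gene Pgam2 had 82, 111, 3310 and 113, at least 86.0-fold higher at 8.5 Gy. Eno3, the muscle enolase, had 120, 142, 4010 and 121 and was detected on every array, 66.1-fold higher at 8.5 Gy. Ampd1, which deaminates AMP in working muscle, had 82, 107, 1699 and 90, at least 43.8-fold higher, and Pygm, the glycogen phosphorylase of muscle, had 82, 91, 331 and 92, at least 7.03-fold higher. Mb, the oxygen store of oxidative fibres and heart, had 259, 178, 1514 and 191 and was detected on every array. It was 6.50-fold higher at 8.5 Gy than at 0 Gy, and its log2 difference from 0 Gy was -1.32 at 0.85 Gy and -0.78 at 17 Gy. By its brighter probe, Mb was the only member at least 2-fold lower at 0.85 Gy than at 0 Gy. The other Mb probe had 101, 110, 212 and 108 and was not detected at 0 and 0.85 Gy. Its log2 difference from 0 Gy was -0.40 at 0.85 Gy and 0.12 at 17 Gy.

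The 9 genes read by several probes show how far the value depends on the probe. All probes were at least 2-fold higher at 8.5 Gy than at 0 Gy in Actn3, Ampd1, Mb and Myl1. The other Actn3 probes had 81, 95, 427 and 77 and 88, 107, 1120 and 93, and the other Ampd1 probe had 77, 102, 741 and 86, so that the 8.5 Gy array was the highest for each. In Ryr1, 3 probes had log2 differences between 4.24 and 5.55 and the remaining one, with 87, 110, 116 and 87, had 0.64. In Tpm2, the brightest probe over the 4 arrays had 7.52 while the others had 0.94 and 1.17. The first of these others had 285, 261, 542 and 232 and was detected on all arrays. In Mybpc1, 2 probes had 3.17 and 3.21 and the other, undetected on each array, 0.13. In Tpm3 no probe was 2-fold apart. Of the 53 probes, 44 were detected at 8.5 Gy, beside 10483 of all 26512 probes. Among the 53, 10 were detected on all arrays and 8 on none, which was not counted over all probes.

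**Figure D3:**
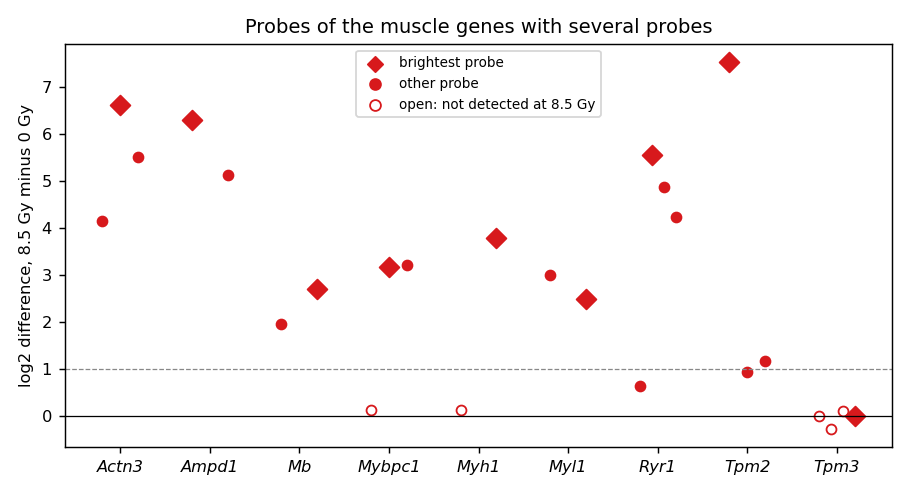
Log2 difference (8.5 Gy minus 0 Gy, normalized values) of every probe of the 9 muscle genes with several probes; diamonds mark the probe with the highest mean intensity, open circles probes not detected at 8.5 Gy, and the dashed line a 2-fold difference. The probes of Tpm2 lie between 0.94 and 7.52, and those of Tpm3 all lie below the line.

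Against 0.85 Gy in place of 0 Gy, 34 members were measured at 8.5 Gy, and 28 were at least 2-fold higher and 0 lower, beside 3.27% and 1.48% of 7822 genes. At 17 Gy against 8.5 Gy, 33 were measured, with 28 at least 2-fold lower and 1 higher, beside 2.65% lower and 3.47% higher among 8038 genes. The higher one was the slow troponin gene Tnnt1, with 190 at 17 Gy against 139 at 8.5 Gy, a log2 difference of 1.12. Both comparisons share the 8.5 Gy array with the comparison of 8.5 Gy and 0 Gy, so the counts are not separate evidence.

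At 17 Gy several of these genes had a low signal. Of 16 members measured between 17 Gy and 0 Gy, 6 were at least 2-fold higher and 0 lower, beside 0.88% and 0.459% of 7839 genes. These were Acta1, Atp2a1, Pvalb, Tnni2, Tnnc2 and Pgam2, none of them well above background at 0 Gy. As bounds, Acta1 was at least 2.94-fold higher and Atp2a1 at least 2.92-fold, and Pvalb and Tnnc2 at least 1.67-fold, Tnni2 at least 1.35-fold and Pgam2 at least 1.17-fold, so that 2 of the 6 were past 2-fold by the bound. Above the background mean, the 17 Gy intensity was 0.156% of the 8.5 Gy value for Pvalb, 0.197% for Tnnc2, 0.249% for Tnni2, 0.351% for Acta1, 0.492% for Atp2a1 and 0.761% for Pgam2. The 17 Gy detections are given by 8.5 Gy intensity, since so small a share of a dimmer value may lie under the detection limit. The shares differed between genes, and whether a common share holds was not tested. Among the 28 members not detected at 0 Gy, 5 of the 6 with more than 10000 intensity units at 8.5 Gy were detected at 17 Gy, with Mylpf, at 93, the one that was not. Of 13 members with 1000 to 10000 units at 8.5 Gy, 1 was detected at 17 Gy, and their 17 Gy intensities ran between 85 and 113. Of 9 members with under 1000 units at 8.5 Gy, 1, the slow isoform Myl3, was detected at 17 Gy, and 2, Myl3 and Casq2, at 0.85 Gy. In the middle group the closest to detection was Tpm2, with a detection p of 0.0115 at 17 Gy. The count of 6 was 2 with the authors' normalized values and 0 without background correction.

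**Figure D4:**
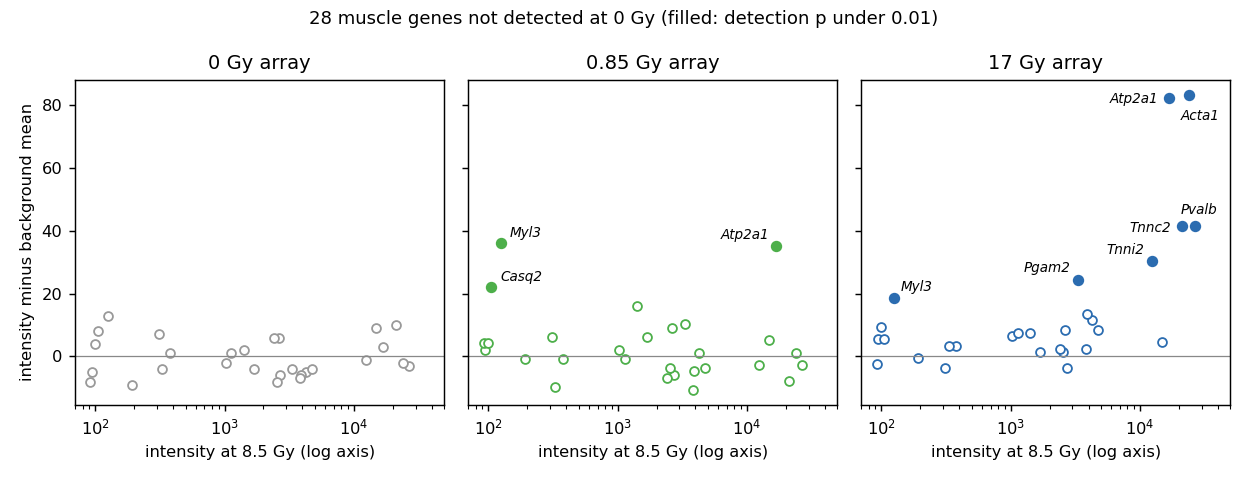
Intensity minus the background mean of each array (vertical) against the intensity of the same probe at 8.5 Gy (log axis) for the 28 muscle genes not detected at 0 Gy, on the 0, 0.85 and 17 Gy arrays; filled points are detected. At 17 Gy, 5 of the 6 genes above 10000 units at 8.5 Gy are detected, while at 0.85 Gy only Atp2a1 of them is. Of 7839 named genes measured between 17 Gy and 0 Gy, 611 were detected at 17 Gy and not at 0 Gy.

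At 0.85 Gy, 12 members were measured against 0 Gy, with 1 at least 2-fold higher and 1 lower, beside 1.78% and 3.68% of 7682 genes. Both counts were 0 with the authors' normalized values and without background correction. The higher one was Atp2a1, with 136 at 0.85 Gy against 89 at 0 Gy, and 0.21% of its 8.5 Gy value above background. Pvalb, Tnnc2, Tnni2, Mylpf and Acta1 were not detected at 0.85 Gy. The slow and cardiac genes Tnnc1, Tnnt1, Tpm3, Myl3 and Casq2 were all detected there, between 123 and 453. Between 17 Gy and 0.85 Gy, 5 of 17 members were at least 2-fold higher and 0 lower, beside 3.45% and 1.35% of 7852 genes. By their bounds, 2 of the 17 were at least 2-fold higher.

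Other genes of striated muscle, taken from lists of 75 genes of which 63 had a probe, were counted in the same way. Of 42 measured at 8.5 Gy against 0 Gy, 25 were at least 2-fold higher and 0 lower, beside 2.63% higher and 3.63% lower among 7862 genes. Their median log2 difference was 1.30 (0.98 with bounds), and 20 of the 42 entered only through their 8.5 Gy value. By their bounds, 21 of the 42 were at least 2-fold higher. Among sarcomere and Z-disc genes, 9 of 11 measured were higher. Tmod4, which caps actin filaments in skeletal muscle, had 131, 150, 1397 and 153, and Myom1, of the M-band, had 113, 130, 621 and 112. The 8.5 Gy array was the highest for both. Among genes of excitation and calcium release, 6 of 11 were higher, with the store protein gene Hrc at 95, 101, 1151 and 92, Sypl2, a protein of the triad junction, at 125, 113, 823 and 98, and the calcium channel subunit Cacng1 at 80, 100, 187 and 85. In the energy list 6 of 15 were higher, among them the sarcomeric mitochondrial creatine kinase Ckmt2, with 88, 98, 1365 and 91, and the muscle phosphofructokinase Pfkm, with 1228, 2030, 4177 and 1430. In the membrane-complex list 4 of 5 were higher, and 2 of them by their bounds, with Cavin4, a caveolar protein of muscle, at 86, 109, 198 and 105.

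**Figure D5:**
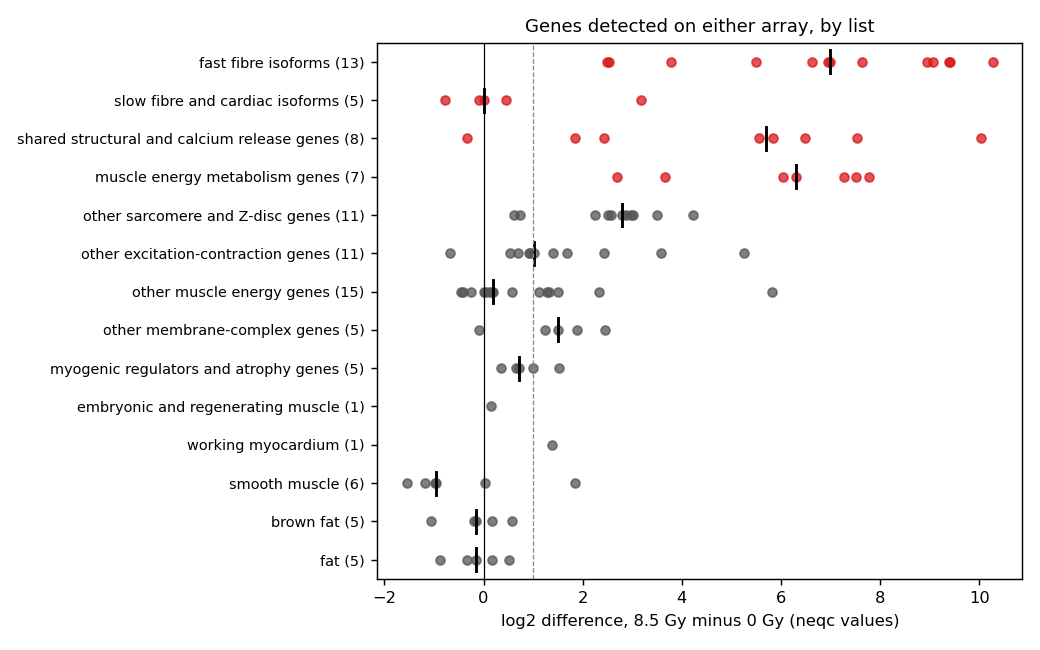
Log2 difference (8.5 Gy minus 0 Gy, normalized values) of genes detected on at least 1 of both arrays, by list, with the number of genes in parentheses; each point is a gene, the bar is the median and the dashed line a 2-fold difference. Fast, shared and energy genes have medians of 6.998, 5.70 and 6.30, slow and cardiac isoforms 0.0011, and smooth muscle -0.96. The slow and cardiac median is the value of Tpm3, a gene also made outside muscle.

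Of 11 myogenic regulators and atrophy genes with a probe, 5 were detected at 8.5 Gy, 2 on each other array and 6 on none. At 8.5 Gy this was 45.5% of the list, beside 44.7% of all named genes. On each other array it was 18.2%, beside 43.6%, 43.1% and 45.4% of all named genes at 0, 0.85 and 17 Gy. The 3 detected at 8.5 Gy alone, Myf6, Vgll2 and Trim63, had 143, 124 and 115 there. The lowest intensity of a detected probe on that array was 115. Mef2c, a regulator also made outside muscle, had 548, 302, 949 and 422 at its brightest probe and was detected on all arrays. The log2 difference of that probe, 8.5 Gy minus 0 Gy, was 0.65. The other Mef2c probes had 103, 106, 539 and 100, a difference of 3.69, and 201, 145, 309 and 163, a difference of 0.64. Vgll2, a cofactor of TEAD, had 93, 116, 124 and 97 and was detected at 8.5 Gy alone. Myf6, the regulator that stays on in mature fibres, had 86, 103, 143 and 85 and was detected at 8.5 Gy alone, at least 1.70-fold higher than at 0 Gy. Myod1 (82, 109, 96 and 92), Myog (99, 108, 109 and 99) and the satellite cell gene Pax7 (88, 87, 97 and 81) were not detected on any array. Fbxo32, a ubiquitin ligase of muscle atrophy, had 140, 135, 238 and 114, and Trim63, another, had 93, 100, 115 and 90. Of 4 genes of embryonic or regenerating muscle with a probe, only Myl4 was detected, at 206, 249, 251 and 208, and the perinatal heavy chain Myh8 was not. Of 9 genes of working heart muscle, Actc1 was the only one detected, and Myh6, Tnni3, Mybpc3, Nppa, Ryr2 and Myl7 were at background on each array. Actc1 had a log2 difference, 8.5 Gy minus 0 Gy, of 1.39, or 0.81 as a bound. The list's summed intensity was 791, 930, 915 and 808 at 0, 0.85, 8.5 and 17 Gy.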

How the data were processed

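Total RNA from 4 samples was hybridised to Illumina mouse arrays, and per the labels' protocols was extracted with a kit for lipid tissue. The authors deposited a non-normalized table of mean bead intensity for 26512 probes, with detection p-values per the file headers, and a normalized intensity table whose sorted columns are identical. The deposited series value table held 25697 probes with the same values as the normalized one. The scanner software is not given in the sources used here. From the non-normalized intensities, neqc of limma 3.58.1 in R 4.3.3 estimated background from the detection p-values, added an offset of 16, quantile-normalized the arrays and took log2. The offset understates folds of dim genes. The 25697 probes of the value table were named by the platform annotation (23978 with 1 symbol, 1719 with none), and 37 of 37 members matched the RefSeq gene table by Entrez identifier. For genes with several probes, the one brightest on average over the 4 arrays was used. A detection p under 0.01 counted as detected, and a gene entered a comparison if detected on at least 1 of its arrays. Differences are the higher dose minus the lower, and a 2-fold difference was counted. In a bound, the bright array's value is divided by that of the dim array or, if higher, by the lowest value detected there. With 1 array at each dose no test was run, and the number of arrays limits the precision. The calculation was tested on simulated data. Only probes well above background at 0 Gy were changed there, so changes of genes near background were not covered. Beyond the members, genes named by rule were at most 6 per list by difference at 8.5 Gy, Myod1, Myf6, Myog and Pax7, and markers of other tissues. Outside that rule, Atp2a2, Actc1, Acta2, Trim63, Vgll2, Myl4, Car3, Cox7a1, Cox8b, Fabp3, Art3, Hspb6 and genes named as undetected were given for comparison. Some of these were chosen after their values were seen. The members and gene lists were chosen with earlier results of these data known. Promoter sequences are from RefSeq (GRCm38.p6), and coordinates are those of that build. Python 3.11.15, pandas 2.3.3, numpy 2.4.6 and matplotlib 3.10.9 were used.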

Additional observations from a re-analysis of the deposited data

How the results depend on the processing

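No paired analysis was possible because each dose had 1 array, and for the same reason no replicate could be left out. The 28 members at least 2-fold apart between 8.5 and 0 Gy stayed 28 in every alternative but one: when detection on all 4 arrays was required, 8 members entered at 8.5 Gy and 4 were 2-fold apart. Between 17 and 0 Gy the 6 became 2 with the authors' values, 0 without background correction, 0 with detection on all 4 arrays, 2 at 3-fold and 2 with bounds. Between 0.85 and 0 Gy the 2 became 0 with the authors' values, 0 without background correction, 0 at 3-fold, and 1 with each of 75th percentile scaling, detection on all 4 arrays, the mean of probes and bounds. The fast median was 5.10 with the authors' values, 4.86 without background correction, 6.94 with 75th percentile scaling, 7.12 without scaling, 2.48 with detection on all 4 arrays (Myl1 alone) and 6.11 with bounds. The slow median of 0.0011 was 0.0019, 0.0009, -0.0221, 0.16 and -0.10 under the first 5 of these, and -0.0391 with the mean of probes. The 17 Gy median of 0.18 over all members was 0.12, 0.11, 0.15, 0.23 and -0.0522 under the same 5, 0.27 with a detection p of 0.05, 0.19 without a filter, 0.13 with the mean of probes and 0.15 with bounds. The 0.85 Gy median of -0.0230 was -0.0096, -0.0093, -0.0527, 0.34 and -0.0630 under those 5, 0.0011 with a detection p of 0.05, 0.0225 without a filter and -0.0790 with the mean of probes. Without scaling the median of all genes itself shifted by 0.33 for the 0.85 Gy array, 0.16 for 8.5 Gy and 0.07 for 17 Gy. The cause of these changes was not tested. The counts for 17 and 0.85 Gy rest on intensities close to background, which limits them.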

Other observations

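Several genes with a known role in muscle were bright on all 4 arrays and did not stand apart at 8.5 Gy. The carbonic anhydrase gene Car3 had intensities of 15611, 21381, 17421 and 14435 at 0, 0.85, 8.5 and 17 Gy, with a log2 difference of -0.25, 8.5 Gy minus 0 Gy. The cytochrome oxidase subunit genes Cox7a1 and Cox8b, which brown fat shares with muscle, had 11783, 18879, 18502 and 11767 and 15767, 23262, 22764 and 15740, with differences of 0.17 and 0.12. Cox6a2, a subunit gene of the same complex, was detected at 8.5 Gy and on no other array. The fatty acid carrier gene Fabp3 had 6081, 3249, 5914 and 5587, with a difference of -0.42, and the mono-ADP-ribosyltransferase gene Art3 had 1062, 1160, 1176 and 918, with a difference of -0.10.

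Of 3 small heat shock genes known from muscle, Hspb6 and Cryab were at least 2-fold higher at 8.5 Gy than at 0 Gy. Hspb6 had 726, 1041, 4818 and 904 and was 5.93-fold higher, and Cryab had 106, 126, 369 and 112 and was 7.34-fold higher. Hspb7 had 81, 104, 104 and 87 and was not detected on any array. Genes of the purine and phosphate turnover of muscle stood apart by less than Ampd1 did: Adssl1 had 1887, 3291, 5807 and 2466, 2.49-fold higher at 8.5 Gy, and Ak1 had 243, 308, 548 and 294, 2.42-fold higher. These values are descriptions of single arrays.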
